A study of Mus musculus with 60 samples.

Results

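Oncofetal genes are genes that the fetal liver uses, that the adult liver keeps silent and that liver tumors often use again. The 8 oncofetal genes *Afp*, *Dlk1*, *Gpc3*, *Igf2*, *Igf2bp1*, *Igf2bp2*, *Igf2bp3* and *Lin28b* were followed here through every group of cultured mouse cells and of regenerating mouse liver in which mRNA was sequenced. They were chosen by name as a family known for this behavior, with earlier results of these data known. All 8 were listed in both tables, among 19355 gene symbols in the table of cells and 17473 in that of livers, and the values are FPKM, the number of read pairs per kilobase of transcript, scaled to the depth of the library.

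The labels give every sample as WT and C57BL/6. By the study's methods its clones were grown from hepatocytes that carry a tdTomato reporter switched on by Albumin-Cre. The cell table held 11 groups of 3 samples. These were freshly isolated hepatocytes; IL6-iHPCs, the proliferating progenitor-like cells that hepatocytes become in medium with EGF, HGF, dexamethasone and IL6, at D3 (P0) and D14 (P0) of the first culture; IL6-iHPCs after passaging, as mouse-1 (P10), mouse-1 (P35), mouse-2 (P10) and clone-1 (P20); and IL6-iMHs, the hepatocyte-like cells that each of those 4 passaged lines gave after maturation with oncostatin M and dexamethasone. Clone-1 was grown from 1 cell, and mouse-1 at P10 and at P35 is the same mouse, so the 4 lines are not 4 independent mice. Samples of a cell group are described as technical repeats, so each p-value on cells measures the spread between these samples only. The liver table held 6 groups of 3 livers, normal liver and the liver left behind 6 h, 24 h, 3 days, 7 days and 14 days after partial hepatectomy (PHX). A liver sample is a mixture of cell types, in which fewer cells of a type and less RNA per cell cannot be told apart.

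*Afp* encodes alpha-fetoprotein, the main serum protein of the fetus, whose gene lies beside that of albumin. *Gpc3* encodes glypican-3, a heparan sulfate proteoglycan on the cell surface, and *Dlk1* a membrane protein of hepatoblasts, the bipotent progenitors of the fetal liver. *Igf2* is an imprinted growth factor of the fetus. *Igf2bp1*, *Igf2bp2* and *Igf2bp3* encode RNA-binding proteins that hold and stabilize mRNAs, *Igf2* mRNA among them. *Lin28b* encodes an RNA-binding protein that blocks the maturation of let-7, a family of microRNAs that accumulates as tissues mature and represses the mRNAs of *Lin28b*, *Hmga2* and the *Igf2bp* genes.

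Before the genes are described, some properties of the samples bear on them. Reads on genes numbered 49.3 to 88.8 M per cell sample and 52 to 79.2 M per liver. *Alb*, the defining gene of hepatocytes, averaged 50010 FPKM in hepatocytes, 381 to 8098 in the 6 IL6-iHPC groups and 53442 to 62143 in the 4 IL6-iMH groups. Reads on 4 Y-linked genes numbered 994 to 1550 in hepatocytes, 9185 to 18444 at D3 and D14 and 6575 to 9095 in IL6-iHPCs of clone-1. They numbered 0 to 2 in the IL6-iHPCs of mouse-1 and mouse-2, and 0 in all 12 IL6-iMH samples, those of clone-1 included. Hepatocytes and the D3 and D14 cultures therefore differ in this from the mouse-1 and mouse-2 lines and from all IL6-iMHs, and in comparisons between them culture and a difference of animals cannot be told apart. IL6-iHPCs and IL6-iMHs labelled clone-1 therefore do not match in this respect, and values of clone-1 are given apart. One liver, PHX-D3 replicate 2, stood apart from the other 2 of its group. The tests of *Afp* at 3 days are given with and without it, and those of related genes with it only.

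The let-7 seed and its matches in the mRNAs are shown first, since they are a sequence feature that splits the 8 genes. All 9 mature let-7 and miR-98 5p microRNAs in RefSeq share the seed in capitals (bases 2 to 8), of which let-7a and miR-98 are shown.
mmu-let-7a-5p: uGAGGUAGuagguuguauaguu
mmu-miR-98-5p: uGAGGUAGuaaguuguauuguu
The letters CTACCTC, which pair with this seed, were looked for on the sense strand of the longest annotated 3′ untranslated region of each gene (GENCODE M21, GRCm38). They were found in each of the 4 RNA-binding genes, with 4 matches in *Igf2bp1*, 1 in *Igf2bp2*, 1 in *Igf2bp3* and 4 in *Lin28b*, and in none of *Afp*, *Dlk1*, *Gpc3* and *Igf2*. The first match of each gene is in capitals here, with its surroundings, and each of these is followed by an A. Of all 4 matches of a gene, an A follows 3 in *Igf2bp1* and 1 in *Lin28b*.
Igf2bp1, chr11:95961778-95961800, minus strand: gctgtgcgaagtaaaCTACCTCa
Igf2bp2, chr16:22059473-22059495, minus strand: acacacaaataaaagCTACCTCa
Igf2bp3, chr6:49086787-49086809, minus strand: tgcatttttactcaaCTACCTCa
Lin28b, chr10:45381022-45381044, minus strand: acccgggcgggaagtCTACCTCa
Of 20993 genes, 1894 (9.02%) had at least 1 match. The share grows with length, so it is also given for genes whose region is of like length. There it was 34.3% for *Igf2bp1*, whose region has 6337 bases, 12.1% for *Igf2bp2*, 13.3% for *Igf2bp3* and 24.3% for *Lin28b*. As many as 4 matches were found in 0.331% of the genes of like length for *Igf2bp1* and in 0.295% for *Lin28b*. *Dlk1* and *Igf2* have long regions of 2976 and 3050 bases without a match, where 15.6% and 16.1% of genes of like length have 1, while those of *Afp* (201 bases) and *Gpc3* (441 bases) are short. A match is a description of the letters only, and let-7 itself was not measured in these libraries.

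Promoters are shown for *Afp* and *Dlk1*, which were among the 4 genes that rose together between D3 and D14 and whose windows hold motifs of hepatic factors. RefSeq windows (GRCm38.p6) were searched on both strands over the 250 bases before the start for the HNF1 motif GTTAAT, the forkhead motif TGTTTAC, the NR5A motif TCAAGG and the STAT palindrome TTCNNNGAA, in capitals here, of which none overlapped in these windows. The *Afp* window holds the HNF1 motif 105 bases and the NR5A motif, on the reverse strand, 138 bases before the start.
Afp, chr5:90490464-90490713, plus strand: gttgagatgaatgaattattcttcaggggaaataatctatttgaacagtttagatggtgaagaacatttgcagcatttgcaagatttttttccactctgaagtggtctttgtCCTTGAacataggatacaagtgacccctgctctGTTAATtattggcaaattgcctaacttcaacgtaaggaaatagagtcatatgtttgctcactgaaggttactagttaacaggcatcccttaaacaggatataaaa
The *Dlk1* window holds the forkhead motif at 87 and at 67 bases before the start.
Dlk1, chr12:109452573-109452822, plus strand: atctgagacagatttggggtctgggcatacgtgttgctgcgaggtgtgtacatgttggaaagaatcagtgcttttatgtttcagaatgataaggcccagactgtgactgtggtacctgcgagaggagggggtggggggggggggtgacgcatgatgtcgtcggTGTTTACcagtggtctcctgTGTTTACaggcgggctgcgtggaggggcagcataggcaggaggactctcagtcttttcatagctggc
Of 32817 windows, 6.44% hold the HNF1 motif, 3.16% the forkhead motif, 12.5% the NR5A motif and 7.01% the STAT palindrome. The window of *Igf2bp2* holds the NR5A motif, and those of *Gpc3*, *Igf2* (4 windows), *Igf2bp3* and *Lin28b* hold none of the 4 motifs. Windows were matched for 7 of the 8 genes, all but *Igf2bp1*. *Afp* lies at chr5:90490737-90508907 on the plus strand, next to *Alb* at chr5:90460897-90476602.

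The summed FPKM of the 8 genes shows the course of the family. The sum was 0.376 in hepatocytes, where 4 of the 8 genes were at 0 in all 3 samples. It was 43.6 at D3 and 393 at D14, of which *Afp* made up 65.9%. In passaged IL6-iHPCs it was 37.3 for mouse-1 (P10), 50.7 for mouse-2 (P10), 74.1 for mouse-1 (P35) and 122 for clone-1 (P20). In the IL6-iMHs of the same lines it was 23.4, 11.8, 29.7 and 44.2. *Afp* was the leading gene at D14, whereas *Igf2bp2* was the leading gene at D3 and in all 8 groups of passaged IL6-iHPCs and IL6-iMHs.

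**Figure D1:**
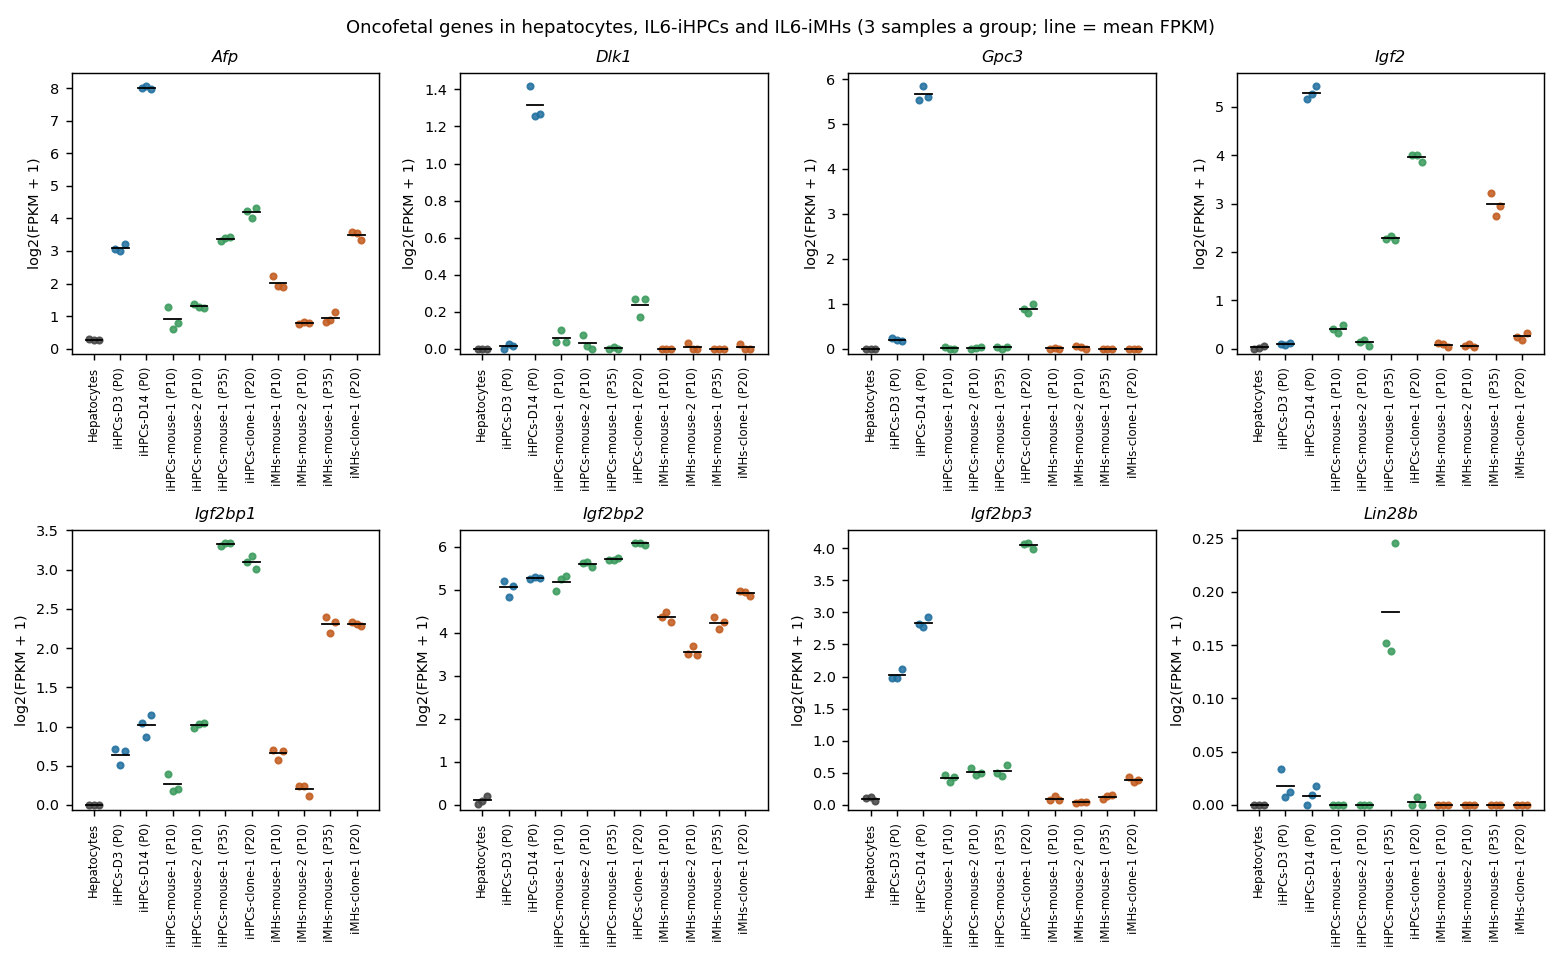
Level of each of the 8 genes as log2(FPKM + 1), with 1 point for each of the 3 samples of the 11 cell groups and a line at the mean FPKM. *Afp*, *Dlk1*, *Gpc3* and *Igf2* are highest at D14, *Igf2bp2* is high in every cultured group, and *Igf2bp1*, *Igf2bp3* and *Lin28b* are highest in late or clonal lines.

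*Afp* was low in hepatocytes and rose steeply over the first culture. Hepatocytes were at 0.219, 0.192 and 0.213 FPKM (mean 0.208 ± 0.0142, SD, n = 3). At D3 the samples were at 7.34, 6.95 and 8.28 FPKM (7.52 ± 0.686), and at D14 at 258, 268 and 251 FPKM (259 ± 8.45). The 3 groups did not overlap, and the mean at D14 was 1248-fold that of hepatocytes and 34.5-fold that of D3. At 259 FPKM, *Afp* was above 99.2% of all symbols listed in the D14 samples. Passaged IL6-iHPCs were all far below D14, at 1.42, 0.514 and 0.742 FPKM for mouse-1 (P10), 1.56, 1.44 and 1.40 for mouse-2 (P10), 8.92, 9.64 and 9.67 for mouse-1 (P35) and 17.6, 15.2 and 18.9 for clone-1. Means therefore ran in the order D14, IL6-iHPCs of clone-1, IL6-iMHs of clone-1 (10.3), IL6-iHPCs of mouse-1 (P35) (9.41), D3, IL6-iMHs of mouse-1 (P10) (3.08) and IL6-iHPCs of mouse-2. Below these stood IL6-iMHs of mouse-1 (P35) (0.921), IL6-iHPCs of mouse-1 (P10) (0.892), IL6-iMHs of mouse-2 (0.722) and hepatocytes. The ranges of IL6-iMHs of clone-1 and IL6-iHPCs of mouse-1 (P35) overlapped, as did each neighboring pair from 0.921 to 0.722 FPKM.

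*Gpc3* and *Dlk1* marked the D14 culture more narrowly. *Gpc3* was at 0 in all 3 hepatocyte samples, at 0.170, 0.136 and 0.118 FPKM at D3 and at 45.5, 56.2 and 47.8 FPKM at D14 (49.8 ± 5.66, SD, n = 3). Against the level that 3 read pairs would give in a hepatocyte library, 0.0469 FPKM, the D14 mean was at least 1063-fold higher. Past D14 the clone held the highest level, with 0.830, 0.742 and 0.978 FPKM in IL6-iHPCs of clone-1, and no sample of the other 3 passaged lines or of any IL6-iMH group exceeded 0.0441 FPKM. *Dlk1* was also highest at D14 and next in IL6-iHPCs of clone-1. It was at 0 in hepatocytes, at 1.67, 1.39 and 1.41 FPKM at D14 (1.49 ± 0.156), which is at least 46.0-fold above the floor of hepatocytes, and at 0.206, 0.125 and 0.206 FPKM in IL6-iHPCs of clone-1. Every other cell sample was at 0.0714 FPKM or below, that is at 12 reads or fewer. Over the 11 group means the 2 genes had a Pearson r of 0.998, and D14 and IL6-iHPCs of clone-1 were the highest groups of both.

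*Igf2* was nearly silent until D14. Annotated antisense and read-through transcripts overlap this gene, and whether reads were counted by strand is not given in the sources used here. Hepatocytes held 0, 4 and 8 reads on *Igf2*, and D3 samples were at 0.0706, 0.0550 and 0.0815 FPKM. At D14 the samples were at 34.7, 37.7 and 41.9 FPKM (38.1 ± 3.60, SD, n = 3), 552-fold the D3 mean. Among passaged IL6-iHPCs the lines differed widely, with means of 0.328 FPKM in mouse-1 (P10), 0.0920 in mouse-2 (P10), 3.87 at P35 of the former mouse and 14.6 in clone-1. Unlike *Gpc3*, *Igf2* also had a high IL6-iMH group, with 8.25, 5.71 and 6.74 FPKM in mouse-1 (P35) (6.90 ± 1.27), above the IL6-iHPCs it came from. IL6-iMHs of clone-1 were at 0.188, 0.138 and 0.244 FPKM, and those of the P10 lines averaged 0.0604 and 0.0435.

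*Igf2bp2* behaved otherwise than the other 7 genes, since it was high in every cultured group. Hepatocytes were at 0.0227, 0.0629 and 0.155 FPKM, which rests on 6, 19 and 34 reads. D3 samples were already at 36.0, 27.4 and 33.2 FPKM (32.2 ± 4.39, SD, n = 3), and D14 samples, at 36.9, 38.3 and 37.7 (37.6), lay just above the D3 range. Passaged IL6-iHPCs had means of 35.5, 47.6, 51.2 and 66.5 FPKM in mouse-1 (P10), mouse-2 (P10), mouse-1 (P35) and clone-1, and the range of mouse-1 (P10) overlapped those of D3 and of D14. All 4 IL6-iMH groups stood below all passaged IL6-iHPCs, with means of 19.6, 10.8, 17.8 and 29.4 FPKM in the same order of lines. The lowest IL6-iMH sample, at 10.2 FPKM, was still far above the highest hepatocyte sample.

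*Igf2bp1* was highest in mouse-1 at P35, the latest passage measured. It was at 0 in all hepatocyte samples, at 0.639, 0.419 and 0.610 FPKM at D3 and at 1.06, 0.820 and 1.21 at D14. IL6-iHPCs of mouse-1 were at 0.317, 0.133 and 0.155 FPKM at P10 and at 8.88, 9.16 and 9.12 at P35, a 44.9-fold higher mean. The P35 mean of 9.06 FPKM was at least 713-fold above the hepatocyte floor of 0.0127 FPKM. IL6-iHPCs of mouse-2 (P10) averaged 1.02 FPKM, overlapping D14, and those of clone-1 were at 7.58, 8.03 and 7.03. IL6-iMHs of mouse-1 (P35) and clone-1 had nearly the same level, 3.96 and 3.94 FPKM, with overlapping ranges.

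*Igf2bp3* was highest in the clone. IL6-iHPCs of clone-1 were at 15.7, 16.0 and 14.9 FPKM (mean 15.6), D14 at 6.02, 5.80 and 6.57 (6.13) and D3 at 2.92, 2.92 and 3.35 (3.07), and these 3 groups overlapped neither each other nor any other group. The IL6-iHPCs of the 3 other lines averaged 0.337 to 0.442 FPKM, IL6-iMHs of clone-1 0.312, and the other IL6-iMHs 0.0296 to 0.0920, around the 0.0694 FPKM of hepatocytes. The 3 paralogs therefore entered in different proportions. *Igf2bp2* made up 89.9% of their summed FPKM at D3, 84.0% at D14, 98.5% in mouse-1 (P10), 84.3% at P35 of the same mouse and 74.2% in clone-1. The rest was mostly *Igf2bp3* at D14 (13.7%) and in clone-1 (17.4%), and mostly *Igf2bp1* in mouse-1 (P35) (14.9% in IL6-iHPCs and 18.1% in IL6-iMHs).

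**Figure D2:**
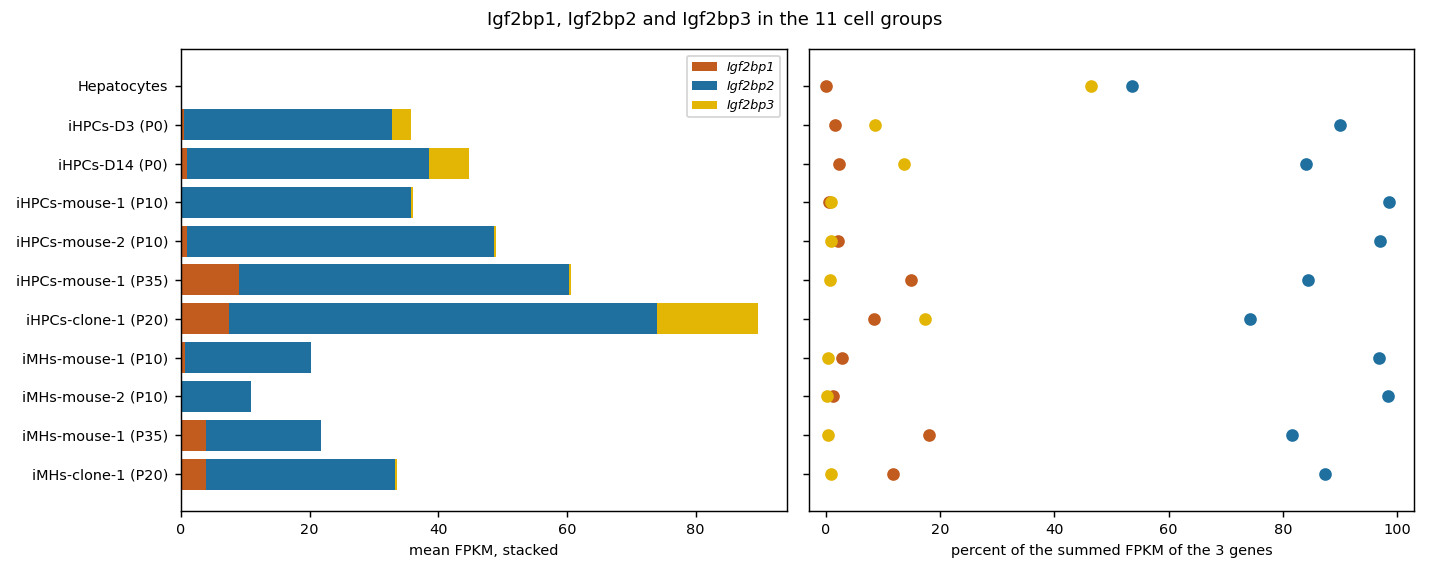
Left, mean FPKM (n = 3) of *Igf2bp1*, *Igf2bp2* and *Igf2bp3* stacked for each of the 11 cell groups. Right, the percent of their sum that each gene makes up; *Igf2bp2* is above 74% in every group but hepatocytes, where the sum is 0.149 FPKM.

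*Lin28b* was the rarest of the 8. It was found above the floor of 3 read pairs in every sample of only 1 group, IL6-iHPCs of mouse-1 (P35), at 0.111, 0.105 and 0.186 FPKM, from 49, 38 and 65 reads. D3 samples held 8, 2 and 3 reads, D14 samples 0, 2 and 4, those of clone-1 0, 2 and 0, and the 21 samples of the other 7 groups none. The P35 mean of 0.134 FPKM was at least 7.50-fold above the hepatocyte floor of 0.0179 FPKM. Its relative *Lin28a*, which was named for comparison, reached at most 0.00855 FPKM in any cell sample.

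To compare groups, values were taken as log2(FPKM + 1) and tested with limma across all genes that reached 1 FPKM in at least 3 samples. A gene is called where the Benjamini-Hochberg adjusted p-value is under 0.05 and the change is at least 2-fold on this scale, which understates the change of genes near 0. Of the 8 genes, 7 passed the filter on low values in the cell table, all but *Lin28b*. *Gpc3* and *Dlk1* reached 1 FPKM in the D14 samples only and passed through them, so their differences from D14 were in part fixed by the filter. They are given as values and left out of the counts of comparisons with D14, which cover the 5 genes that pass without the D14 samples. The median of all tested genes was itself shifted against hepatocytes, by 1.14 at D3, 1.00 at D14, 0.93 after passaging and 0.46 after maturation, and by -0.40 in IL6-iMHs against IL6-iHPCs, so differences of the genes are given with this shift in view.

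At D3 against hepatocytes 3 of the 7 tested genes were called higher, where 53.9% of all genes were called higher. *Igf2bp2* rose by a log2 of 4.94 (SE 0.09, adjusted p = 1e-28), *Afp* by 2.82 (SE 0.11, adjusted p = 5e-20) and *Igf2bp3* by 1.93 (SE 0.05, adjusted p = 1.8e-24). These lie 3.80, 1.68 and 0.79 above the median gene. *Igf2bp1*, with a difference of 0.63 (SE 0.07, adjusted p = 1.3e-09), and *Gpc3*, with 0.19, stayed under 2-fold on this scale, and *Dlk1* and *Igf2* differed by 0.01 and 0.07.

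At D14 against hepatocytes all 5 genes that pass without the D14 samples were called higher, where 50.0% of all genes were. These are *Afp*, *Igf2*, *Igf2bp1*, *Igf2bp2* and *Igf2bp3*. The log2 differences were 7.75 (SE 0.11) for *Afp*, 5.26 (SE 0.08) for *Igf2*, 5.16 (SE 0.09) for *Igf2bp2* and 2.74 (SE 0.05) for *Igf2bp3*. Their adjusted p-values ran from 7.4e-31 to 3.5e-28. *Gpc3*, which is outside this count, differed by 5.66 (SE 0.05). The differences of *Dlk1*, 1.32, and of *Igf2bp1*, 1.02, were only 0.32 and 0.02 above the median gene. Under quantile normalization they were 0.87 and 0.57 and no longer called, and *Igf2bp1* was 0.95 and not called without D14 replicate 3.

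From D3 to D14 the rises of *Gpc3*, *Igf2* and *Afp* were the largest among the 7 tested genes. *Gpc3* rose by a log2 of 5.47, *Igf2* by 5.19, *Afp* by 4.93 and *Dlk1* by 1.30. For *Igf2* and *Afp* the SE was 0.11 or less and the adjusted p 1.3e-22 or less. *Igf2bp3* (0.81, adjusted p = 3.3e-14), *Igf2bp1* (0.38) and *Igf2bp2* (0.23) were under 2-fold and not called. Of the 5 genes that pass without the D14 samples, 2 were called higher (*Afp* and *Igf2*), where 5.12% of all genes were.

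**Figure D3:**
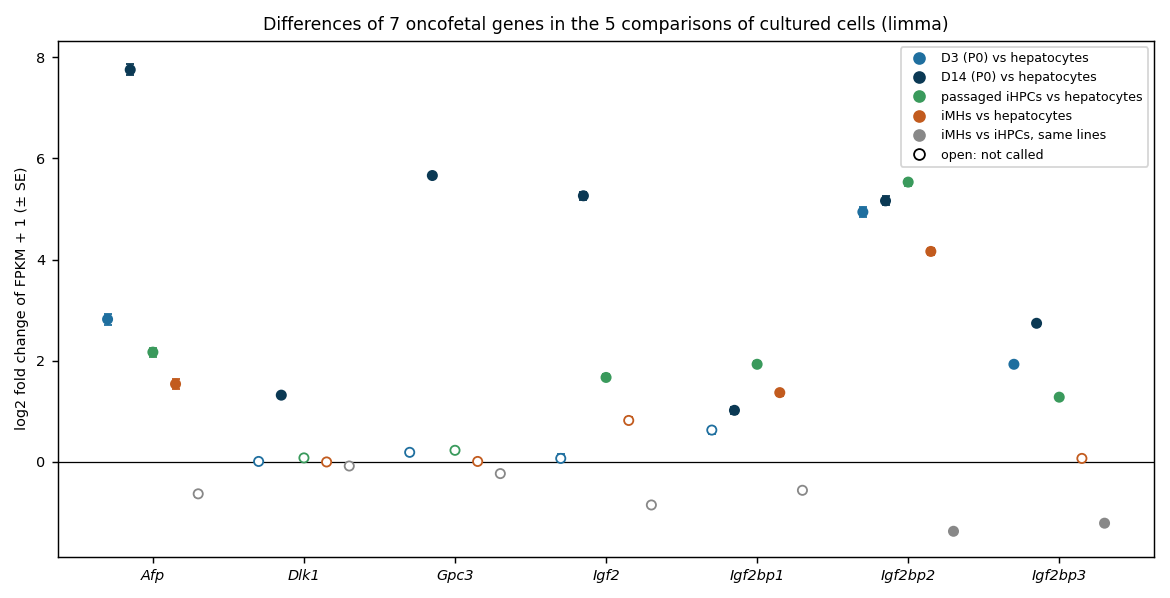
Log2 fold change of FPKM + 1 with its SE for the 7 tested genes in 5 comparisons of the cell table, filled where called. *Afp*, *Gpc3* and *Igf2* stand above 5 at D14 only, and *Igf2bp2* stands above 4 in all 4 comparisons with hepatocytes.

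Passaged IL6-iHPCs, taken as the mean of the 4 lines, were compared with hepatocytes. Of the 7 genes 5 were called higher, where 48.1% of all genes were. The log2 differences were 5.53 (SE 0.07) for *Igf2bp2*, 2.17 (SE 0.09) for *Afp*, 1.93 (SE 0.06) for *Igf2bp1*, 1.67 (SE 0.06) for *Igf2* and 1.28 (SE 0.04) for *Igf2bp3*, while *Gpc3* (0.23) and *Dlk1* (0.08) were not called. Without clone-1 3 genes were called (46.5% of all genes), and *Igf2* (0.91) and *Igf2bp3* (0.39) no longer passed 2-fold. *Igf2bp3* at 1.28 lay 0.35 above the median gene and was 0.72 under quantile normalization.

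Log2 differences of the passaged lines from D14 were -5.58 for *Afp*, -5.43 for *Gpc3*, -3.59 for *Igf2*, -1.46 for *Igf2bp3* and -1.23 for *Dlk1*. Of the 5 genes that pass without the D14 samples, 3 were called lower (*Afp*, *Igf2* and *Igf2bp3*), where 6.57% of all genes were. *Igf2bp1* (0.91) and *Igf2bp2* (0.37) were not called. Y-linked reads numbered 9185 to 10803 at D14 and 0 to 2 in these lines other than clone-1, so passage and a difference of animals cannot be told apart. For the mean without clone-1 the count called lower was again 3 (6.98% of all genes), with -6.17 for *Afp* and -2.35 for *Igf2bp3*.

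The lines differed among themselves. Against hepatocytes 1 of the 7 genes was called in mouse-1 (P10), *Igf2bp2*, where 40.0% of all genes were called higher. The count was 3 for mouse-2 (P10) (42.8% of all genes), 4 for mouse-1 (P35) (54.3%) and 5 for clone-1 (51.5%). In mouse-2 *Afp* (1.03) and *Igf2bp1* (1.02) were at the threshold, 0.27 and 0.26 above the median gene, and were 0.70 and 0.95 under median-of-ratios scaling and no longer called. Within mouse-1, P35 was above P10 by 3.07 (SE 0.07) for *Igf2bp1*, 2.49 (SE 0.11) for *Afp* and 1.88 (SE 0.08) for *Igf2*, with adjusted p-values of 4.2e-18 or less, 3 of 7 genes where 24.8% of all genes were called higher. *Igf2bp2* (0.52) and *Igf2bp3* (0.11) were not called. Clone-1 differed from mouse-1 (P35) by 3.52 (SE 0.05) for *Igf2bp3* and 1.68 (SE 0.08) for *Igf2*, 2 of 7 genes where 9.18% of all genes were called in either direction. *Afp* (0.80), *Gpc3* (0.86) and *Igf2bp1* (-0.24) were not called. Proliferation moved with the same lines, since the summed FPKM of 10 proliferation genes was 70.9 to 83.8 in IL6-iHPCs of mouse-1 (P10), 1061 to 1103 at P35 of this mouse and 914 to 929 for clone-1, and its part in these differences was not tested.

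Maturation was examined line by line, because the mean of the lines hid opposite changes. Taken as a mean, IL6-iMHs were below the IL6-iHPCs of the same lines by 1.37 (SE 0.04) for *Igf2bp2* and 1.21 (SE 0.03) for *Igf2bp3*, 2 of 7 genes called where 21.4% of all genes were called lower. The other 5 genes were between -0.85 (*Igf2*) and -0.08 (*Dlk1*). Without clone-1 *Igf2bp2* alone was called (24.5% of all genes) and *Igf2bp3* was -0.40, and under median-of-ratios scaling, which removes the shift of the median gene, *Igf2bp2* was -0.85 and not called.

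In mouse-1 (P10) *Afp* rose on maturation by 1.13 (SE 0.11, adjusted p = 4e-10), from 0.514 to 1.42 FPKM in IL6-iHPCs to 2.75 to 3.70 in IL6-iMHs, the 1 of 7 genes called where 9.59% of all genes were called higher. Without IL6-iHPCs replicate 2 of this line the difference was 0.98 and not called. In mouse-1 (P35) *Afp* fell by 2.44 (SE 0.11, adjusted p = 4e-18), a 10.2-fold lower mean, and *Igf2bp2* by 1.47 and *Igf2bp1* by 1.02, 3 of 7 genes where 35.1% of all genes were called lower. *Igf2* differed there by 0.69, in the other direction, and was not called. The difference between P35 and P10 in the change of *Afp* on maturation was -3.57 (SE 0.16, adjusted p = 7.1e-18) in an interaction test, where 33.7% of all genes were called. The same difference was -1.65 for mouse-2 and -1.82 for clone-1 against mouse-1 (P10), where 14.7% and 30.8% of all genes were called. The fall of *Igf2bp1* is not called under median-of-ratios scaling (-0.35), quantile normalization (-0.30) or without IL6-iMHs replicate 2 (-0.96).

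In mouse-2 (P10) *Igf2bp2* was the 1 gene called, lower by 2.04 (SE 0.09, adjusted p = 1.1e-18), where 28.6% of all genes were called lower. In clone-1 *Igf2* fell by 3.71 (SE 0.08), *Igf2bp3* by 3.66 (SE 0.05) and *Igf2bp2* by 1.15 (SE 0.09), 3 of 7 genes where 17.7% were called lower, and the means of *Igf2* and *Igf2bp3* were 76.7-fold and 49.9-fold lower in IL6-iMHs. This last comparison is between samples whose Y-linked reads differ, at least 6575 in every IL6-iHPC sample and 0 in every IL6-iMH sample, so maturation and a difference of origin cannot be told apart.

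**Figure D4:**
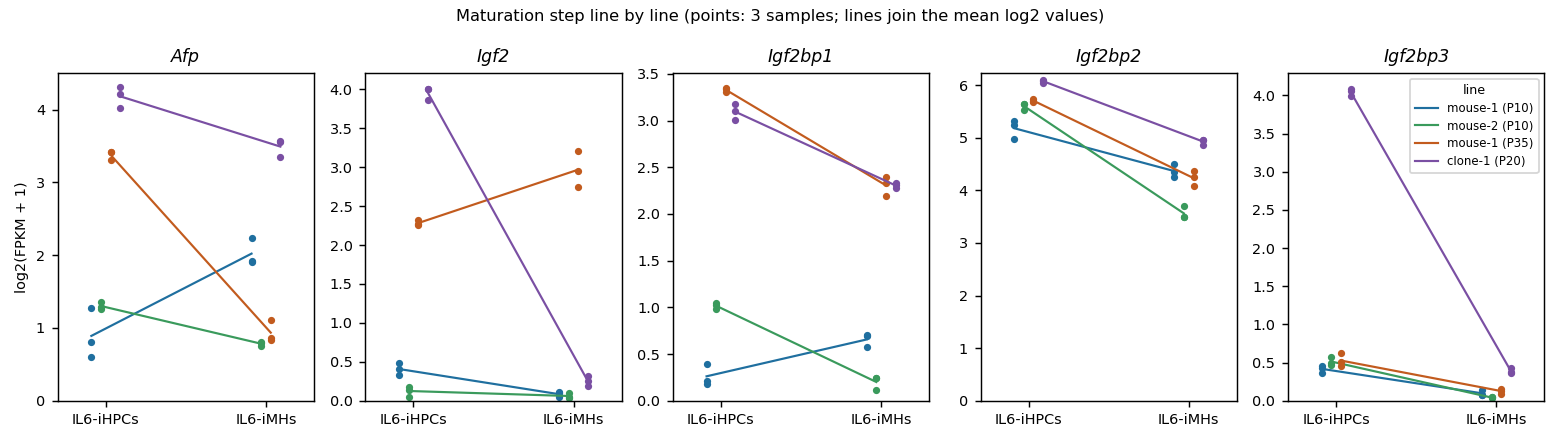
Level of 5 genes as log2(FPKM + 1) in IL6-iHPCs and in the IL6-iMHs labelled with the same line. Each line has 1 color, with points for the 3 samples and lines between the mean log2 values. Y-linked reads differ between IL6-iHPCs and IL6-iMHs of clone-1, so maturation and a difference of origin cannot be told apart there. *Igf2bp2* is lower in IL6-iMHs in every line, whereas *Afp* rises in mouse-1 (P10) and falls in mouse-1 (P35).

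Against hepatocytes, IL6-iMHs as a mean of 4 lines kept 3 of the 7 genes called higher, where 24.8% of all genes were. These were *Igf2bp2* at 4.16 (SE 0.07), *Afp* at 1.54 (SE 0.09) and *Igf2bp1* at 1.37 (SE 0.06), or 3.70, 1.08 and 0.91 above the median gene. *Igf2* was at 0.82 (SE 0.06, adjusted p = 2.9e-13), under 2-fold, and *Igf2bp3* (0.07), *Gpc3* (0.01) and *Dlk1* (0.00) were near 0. Without clone-1 3 genes were again called (22.0% of all genes), with *Afp* at 0.98 and not called and *Igf2* at 1.01 and called. By line, 2 genes were called for mouse-1 (P10), 1 for mouse-2, 3 for mouse-1 (P35) and 3 for clone-1, all higher. Of all genes, 25.4%, 17.6% and 27.1% were called higher for the first 3 of these, and for clone-1 45.3% were called in either direction and 10.4% lower. *Igf2bp2* was among them each time, from 3.45 in mouse-2 to 4.82 in clone-1. *Afp* was called at 1.75 in mouse-1 (P10) and 3.22 in clone-1, *Igf2bp1* at 2.31 in both clone-1 and mouse-1 (P35), and *Igf2* at 2.94 in mouse-1 (P35). *Alb* in the same IL6-iMH groups was at or above its level in hepatocytes, but the other hepatocyte markers together were lower. Of 6 such markers (*Alb*, *Ttr*, *Apoa1*, *Hnf4a*, *Cyp2e1* and *Cps1*), those other than *Alb* summed to 25112 to 26245 FPKM in hepatocytes. In the 4 IL6-iMH groups they summed to 10065 to 18473 FPKM. The P35 and P10 cultures of mouse-1 still differed after maturation, with *Igf2* higher at P35 by 2.89 (SE 0.08), *Igf2bp1* by 1.65 (SE 0.07) and *Afp* lower by 1.09 (SE 0.11), 3 of 7 genes where 6.21% of all genes were called in either direction. The last of these was 0.98 and not called without IL6-iMHs-mouse-1 (P10) replicate 1.

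Markers of other cell types were set beside the rise at D14. The sum of 9 stellate and mesenchymal markers was 25.1 to 27.1 FPKM at D14, against 0.726 to 1.38 at D3 and 0.567 to 0.935 in hepatocytes, but 24.8 FPKM of it was *Dcn* (decorin) and the other 8 summed to 0.852 to 2.15, against 0.365 to 0.605 at D3 and 0.169 to 0.245 in hepatocytes. Endothelial markers (6 genes) summed to 16.2 to 18.6 FPKM in hepatocytes and 0.375 to 0.704 at D14, and macrophage and leukocyte markers (6 genes) to 10.5 to 12.2 and 3.69 to 4.30. Cholangiocyte markers (6 genes), which hepatic progenitors share, rose from 3.84 to 3.94 FPKM in hepatocytes to 4060 to 4483 at D14, mostly *Spp1* (4102 FPKM). The part of the cells behind these markers in the rise at D14 was not tested.

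Related genes were read from lists, beside the median gene and the shares of all genes called against hepatocytes. For D3 these were 53.9% (called higher) and 12.1% (called lower). The shares were 50.0% and 12.9% by D14, 48.1% and 11.3% for passaged IL6-iHPCs, and 24.8% and 7.79% for IL6-iMHs. Of 11 tested other oncofetal and hepatoblast genes, 7 rose at D3, 9 by D14, 8 with passage and 8 after maturation, all against hepatocytes. Their median differences were 1.52, 2.84, 2.63 and 3.35. *Scd2*, a fatty acid desaturase, was at 0.140 FPKM in hepatocytes, 2.30 at D3, 92.6 at D14 and 1068 for mouse-1 (P35) IL6-iHPCs, and rose by a log2 of 8.83 (SE 0.08) in passaged IL6-iHPCs. *Cd24a*, a surface glycoprotein of progenitors, was at 0.377 FPKM in hepatocytes, 97.1 at D3 and 431 in IL6-iHPCs of clone-1 and rose by 7.03 (SE 0.07). Both stayed above 86 FPKM in all IL6-iMH groups.

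Genes of the Lin28 and let-7 axis, which holds known let-7 targets, were called higher in 13 of 16 tested both at D3 and by D14. The counts were 11 for passaged IL6-iHPCs and 6 for IL6-iMHs. In IL6-iMHs against IL6-iHPCs 9 of the 16 were called lower, where 21.4% of all genes were. Their median there was -1.07 against -0.40 for all genes. *Hmga2*, a chromatin protein of fetal tissue, rose by 5.07 (SE 0.07) in passaged IL6-iHPCs. It was at 0 in hepatocytes, 42.9 FPKM at D3, 105 at D14, 10.6 in mouse-1 (P10), 131 at P35 of that mouse and 64.6 in clone-1, and 1.79 to 10.2 in IL6-iMHs. *Myc*, a growth-promoting transcription factor, rose by 4.45 (SE 0.09), from 1.81 FPKM in hepatocytes to 156 at D3 and 53.9 to 74.0 in the passaged lines. The longest 3′ untranslated region of *Hmga2* holds 4 matches to the let-7 seed, of which 1, the first, is followed by an A. It lies at chr10:120364224-120364246 on the minus strand.
Hmga2: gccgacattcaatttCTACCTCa

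Of 12 tested genes for IGF2 receptors and binding proteins, 9 rose and 3 fell by D14, and the counts were 8 and 3 for passaged IL6-iHPCs. *Igf2r*, the receptor that takes IGF2 up for breakdown, was at 2.24 FPKM in hepatocytes, 27.1 at D3 and 34.9 at D14 and rose by 2.53 (SE 0.12) in passaged IL6-iHPCs. *Igf1r*, the receptor through which IGF2 signals, averaged 0.0106 FPKM in hepatocytes, 7.18 at D14, 7.48 in IL6-iHPCs of mouse-1 (P35), 4.44 in those of clone-1 and 0.129 and 0.355 in the P10 lines, while IL6-iMHs of mouse-1 (P35), which also expressed *Igf2*, were at 0.389. *Igfbp3*, a carrier of IGFs, rose by 5.33 (SE 0.07) in passaged IL6-iHPCs and *Igfbp7* by 3.08 (SE 0.10). *Igfbp2*, a carrier that hepatocytes secrete, fell by 10.07 on the log2 scale, from 1126 FPKM to at most 0.203 in any passaged sample, and it stayed at 0.305 FPKM or less in all IL6-iMHs. *Igf1*, the adult growth factor of the family, fell by 5.25, from 60.5 FPKM, and was at 0.937 to 4.36 FPKM in IL6-iMHs.

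Of 12 tested imprinted genes, 8 rose and 1 fell at D3. The counts were 7 and 1 for D14, 4 and 1 for passaged IL6-iHPCs, and 2 and 2 for IL6-iMHs. *Peg3*, a zinc finger gene of this network, rose by 2.99 (SE 0.10) in passaged IL6-iHPCs. It was at 0.0289 FPKM in hepatocytes, 13.8 at D3, 88.2 at D14 and 76.1 in clone-1, and at 1.54 to 7.46 in the other passaged lines. *Grb10*, an adaptor of growth factor receptors, was at 12.2 FPKM at D14, 17.9 in IL6-iHPCs of clone-1 and no more than 0.0329 in the remaining 3 passaged lines, whichever sample was taken. *Slc38a4*, an amino acid transporter of the liver, fell by 5.91 in passaged IL6-iHPCs. *H19* and *Meg3*, the partners of *Igf2* and *Dlk1* at their imprinted loci, were not among the symbols listed, so they were not analysed here.

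Of 18 genes known to regulate *Afp* or *Gpc3*, 10 rose and 2 fell at D3. The counts were 7 and 2 for D14, and 5 and 3 for passaged IL6-iHPCs, with medians of 1.83, 0.86 and 0.55. The share that rose was near that of all genes at D3 and below it at D14 and after passaging. *Zhx2* and *Zbtb20*, which silence *Afp* in the liver after birth, were measured as mRNA only. *Zhx2* was at 2.70 FPKM in hepatocytes, 19.5 at D3 and 11.2 at D14, and *Zbtb20* at 0.292, 21.4 and 11.5. The median gene was also higher than in hepatocytes, by a log2 of 1.14 at D3 and 1.00 at D14. The part of *Zhx2* and *Zbtb20* in the level of *Afp* was not tested. *Cebpa*, a factor of mature hepatocytes, fell by 3.58 in passaged IL6-iHPCs and *Foxa3* by 2.16, and *Prox1* and *Trp53* each rose by 2.56. The 3 tested genes of the albumin cluster, to which *Afp* belongs, were called lower throughout IL6-iHPC culture, that is at D3, by D14 and after passaging. In passaged IL6-iHPCs *Alb* fell by 3.56 and *Afm* (afamin) by 4.05, while *Afp*, their neighbor, was higher by 2.17.

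For each gene the 3 genes with the most similar pattern over the 11 cell group means of log2(FPKM + 1) were listed, as a description. *Afp* was nearest to *Atp8a1* (Pearson r = 0.949), *Slc43a2* (0.948) and *Zfp521* (0.931), *Gpc3*, after *Dlk1*, to *Prss35* (0.987) and *Tgfb1i1* (0.985), and *Dlk1*, after *Gpc3*, to *Apod* (0.981) and *Cntnap5c* (0.981). *Igf2bp1* was nearest to *Lamb3* (0.975), *Ptgs1* (0.954) and *Gcnt1* (0.954), *Igf2bp2* to *Tnks1bp1* (0.988), *Slc25a24* (0.986) and *Tsc22d4* (0.984), and *Igf2bp3* to *Fam189b* (0.983), *Hmgcll1* (0.982) and *Lmo1* (0.969). *Igf2* had the loosest companions, *Pik3r5* (0.865) and *Tfap2a* (0.847), and a symbol that a spreadsheet had turned into a date. The group means share lines and hepatocyte culture, and a gene that is off in most groups resembles many others that are.

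After PHX each of the 8 genes but *Lin28b* was lower in every liver than in every D14 sample, although the 2 tables were made apart and no test was run across them. *Lin28b* was at or near the limit of detection both in the livers and in the D14 samples. The summed FPKM of the 8 genes was 2.35 in normal liver and between 1.73 at 6 h and 8.16 at 3 days. *Afp* was the only one of the 8 to pass the filter on low values. Its values were 0.847, 1.07 and 0.994 FPKM in normal liver, 0.417, 0.367 and 0.381 at 6 h, 1.44, 1.03 and 2.77 at 24 h, 1.02, 13.5 and 3.63 at 3 days, 0.951, 1.30 and 1.07 at 7 days and 0.986, 0.900 and 0.719 at 14 days. The livers at 3 days were widely spread, and the lowest of them lay within the range of normal liver. *Afp* was called higher at 3 days, with a log2 difference of 1.39 (SE 0.45, adjusted p = 0.031), where 3.33% of all genes were called higher, and lower at 7 days than at 3 days, by 1.29 (SE 0.45, adjusted p = 0.037), where 1.31% were called lower.

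Both calls rest on few libraries. Without PHX-D3 replicate 2 the difference at 3 days was 0.64 (adjusted p = 0.093), and without any 1 of the 3 normal livers it was 1.34 to 1.42 with adjusted p-values of 0.071 to 0.077. The difference of day 7 from day 3 was -0.54 (adjusted p = 0.12) without the same library, and it was also not called without PHX-D3 replicate 3 or any 1 of the 3 livers at day 7 (adjusted p = 0.053 to 0.098). Differences of *Afp* from normal liver at 6 h (-0.50, adjusted p = 0.36), 24 h (0.43, adjusted p = 0.49), 7 days (0.10) and 14 days (-0.08) were not called by limma, or by limma voom, and none had an unadjusted p under 0.05, where 16.3%, 7.90%, 8.84% and 2.98% of all genes were called in either direction. The same SE of 0.45, shared by all groups, applies to each of them.

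PHX-D3 replicate 2, with 13.5 FPKM of *Afp*, also had the highest *Gpc3* of all 18 livers (2.27 FPKM, against 0.112 and 0.243 in the other 2) and the highest *Igf2bp3* (1.07, against 0.175 and 0.158). In the same liver the stellate and mesenchymal markers summed to 240 FPKM, against 82.4 and 95.6, erythroid markers to 306 against 98.7 and 39.7, cholangiocyte markers to 147 against 49.1 and 30.0 and hepatocyte markers to 34653 against 45848 and 67577. The part of these other cell types in its oncofetal values was not tested. Proliferation genes summed to 76.4 FPKM in it, below the 80.3 and 148 of the other livers at 3 days.

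Of the 8 genes, 3 did not overlap normal liver in either direction at 6 h (*Afp*, *Igf2bp2* and *Igf2bp3*), 3 at 24 h (*Igf2*, *Igf2bp2* and *Igf2bp3*), 0 at 3 days, 1 at 7 days and 1 at 14 days (*Igf2bp3*). Of all genes with any reads, 53.3%, 39.6%, 32.3%, 48.0% and 37.2% did not overlap at these times, and the counts of the 8 genes are below these shares at each time. *Igf2bp2* was at 0.426, 0.244 and 0.412 FPKM in normal liver, 0.615, 0.707 and 0.983 at 6 h, 0.788, 0.985 and 1.29 at 24 h, and 0.345 to 0.569 at 7 days. The livers at 6 h and 24 h lay above normal liver, with p = 0.10 at both times in an exact permutation test, two-sided, which is the smallest it can give with 3 against 3. *Igf2bp3* was at 0.379, 0.354 and 0.588 FPKM in normal liver and below this range in every sample at 6 h (0.0412 to 0.168), 24 h (0.0945 to 0.293), 7 days (0.0853 to 0.229) and 14 days (0.0971 to 0.149). The exact permutation p was 0.10 at each of these times, again the smallest possible, and so only restates the lack of overlap. All these times were compared with the same 3 normal livers.

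*Gpc3* had a mean of 0.317 to 0.876 FPKM over the 6 groups, and after the high liver at 3 days its next highest value was 1.25 FPKM in PHX-D7 replicate 1. *Igf2* lay between 0.0207 and 0.215 FPKM in all 18 livers, lowest at 24 h (0.0220, 0.0207 and 0.0937) and highest at 7 days (0.134, 0.212 and 0.215). *Dlk1* had 8 reads at most in any liver, *Igf2bp1* 4, and *Lin28b* 2 in a single liver at 24 h, so these 3 genes were at or near the limit of detection at this depth.

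**Figure D5:**
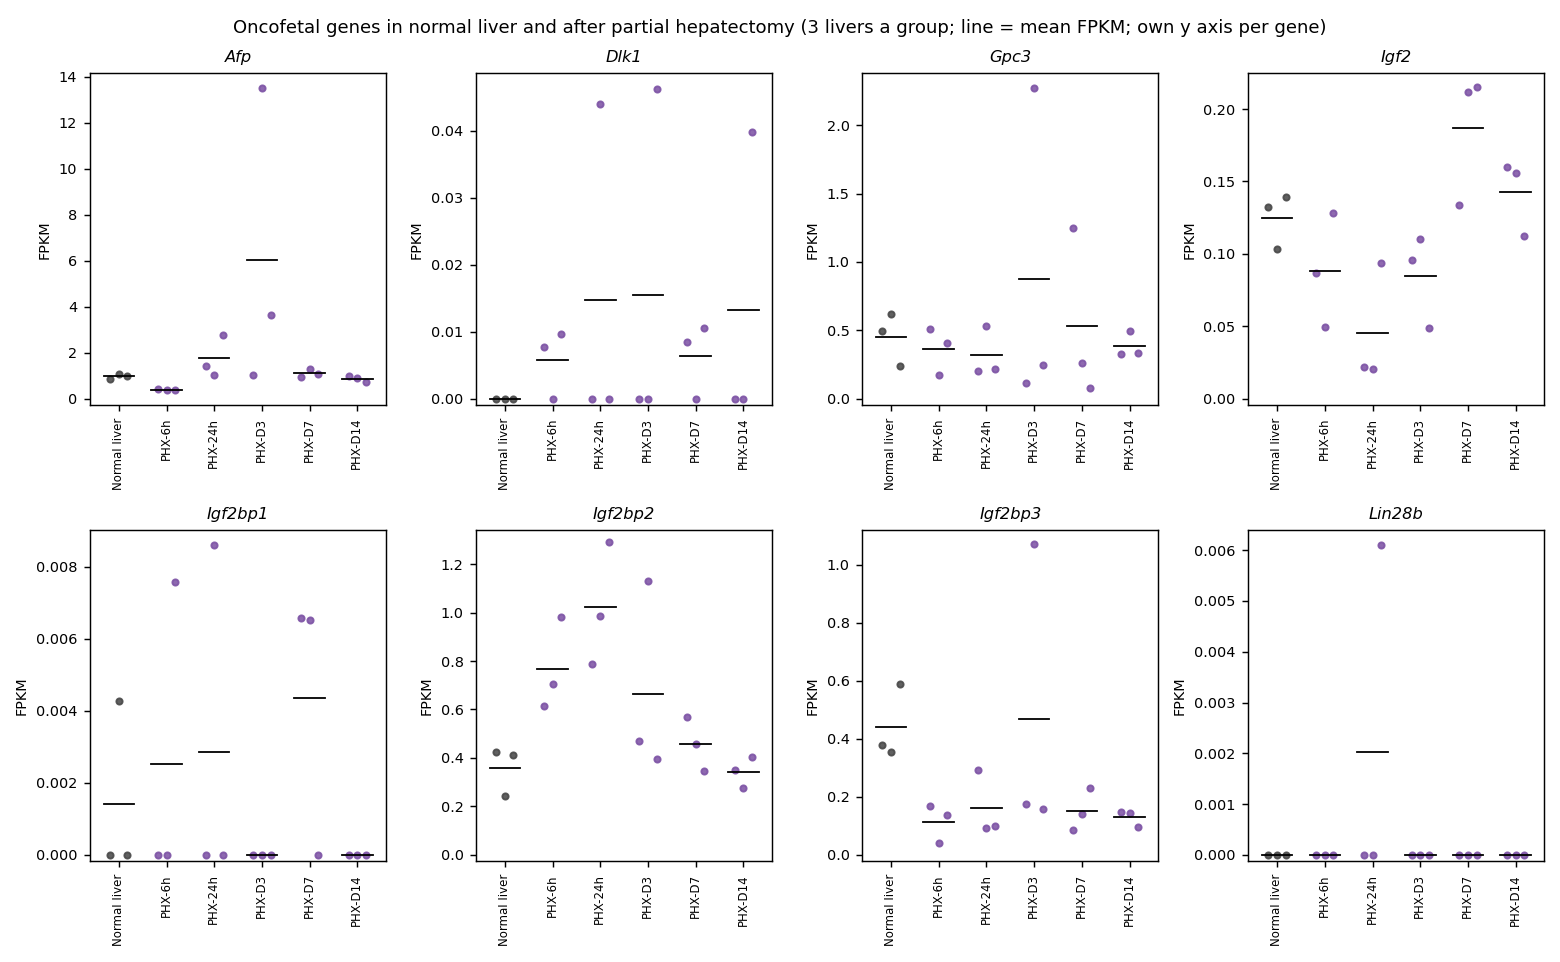
FPKM of each of the 8 genes in the 3 livers of each of 6 groups, with a line at the mean, on a y axis of its own for each gene. *Afp*, *Gpc3* and *Igf2bp3* are highest in 1 liver at day 3, and *Dlk1*, *Igf2bp1* and *Lin28b* have at most 8 reads in any liver.

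Of 8 tested other oncofetal and hepatoblast genes, 4 were called higher at 3 days after PHX, with a median of 1.23. Of all genes, 3.33% were called higher and 2.49% lower at this time. All values of these related genes at 3 days include PHX-D3 replicate 2, which stood apart from its group. *Igdcc4*, an immunoglobulin-family surface protein, rose by 2.16 (SE 0.40, adjusted p = 0.0016), from a mean of 0.0239 FPKM to 0.950 to 9.67, and *Golm1*, a Golgi protein raised in liver disease, by 1.45 (SE 0.19, adjusted p = 0.00017), from 0.998 to 4.52 FPKM. Of 12 tested genes of the let-7 axis, limma called 0 at this time (4 were higher and 1 lower at an unadjusted p under 0.05, and limma voom called 1 higher), of 8 imprinted genes 0 (2 were higher at an unadjusted p under 0.05, and voom called 0) and of 12 genes for IGF2 receptors and binding proteins 0 (2 higher and 1 lower, and voom called 0). Of the 18 regulators *Gata6* rose by 1.21 (SE 0.29, adjusted p = 0.0075) and *Cebpa* fell by 1.16 (SE 0.35, adjusted p = 0.023), and 9 of 10 proliferation genes were called higher.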

How the data were processed

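The authors deposited 1 value per gene and sample. The values were taken as FPKM, the authors' own normalization per transcript length and mapped read pairs, from their decimals and sums; the submitters' processing notes name TopHat 1.4.1, Cufflinks 1.3.0 and mm10. The 33 cell samples and 18 livers were fitted apart, and the 9 samples of the third table were not used here. Whole reads were recovered from the steps of the FPKM values for 18826 of 18828 symbols in the cell table and 17327 of 17329 in the liver table, to within 0.0269 and 0.00223 of a read. They gave the depths and the floor of 3 read pairs (6 reads) per library, which covers counting error only. limma 3.58.1 (R 4.3.3, trend, all groups of a table in 1 fit) was run on log2(FPKM + 1) for the 12328 genes in cells and 11114 in livers that reached 1 FPKM in 3 or more samples, with Benjamini-Hochberg adjustment over all of them. limma voom on recovered reads, scaled by the median of ratios, another pseudocount, filters, scalings, thresholds, a replicate block and leaving out each sample were alternatives. In a test on simulated data 100.0% of 200 changed genes were called in the D14 comparison (12328 genes) and 94.5% in that of day 3 after PHX (11114 genes). The simulation changed only these 200 genes, all by more than the 2-fold threshold, and gave each gene the same spread in every group. It held neither the shift of the median gene nor a liver that stands apart, so these rates do not carry over to the real comparisons.

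The members and lists were chosen with earlier results of these data known. Other genes were named by a rule. From each related list these were the 2 largest rises and falls among genes called in passaged IL6-iHPCs against hepatocytes or at day 3 after PHX against normal liver, together with *H19* (not listed), *Lin28a*, *Zhx2*, *Zbtb20*, *Hmga2*, *Igf1r*, *Igf2r*, *Alb* and the 3 nearest patterns of each member. *Grb10* was named after its values were seen. No 2 samples of a group agreed within sampling noise (chi-square per degree of freedom of 3.13 or more in 33 pairs of cell samples and 16.1 or more in 18 pairs of livers). Figures were drawn with matplotlib 3.10.9.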

Additional observations from a re-analysis of the deposited data

Results flagged for a closer look

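The groups hold 3 samples each, so no test of single far samples was made. The change on maturation (IL6-iMHs minus IL6-iHPCs of a line, log2) was compared between lines by an interaction term, with limma and Benjamini-Hochberg adjustment over 12328 genes, and the values below differed from mouse-1 (P10) by at least 2-fold. For mouse-1 (P35) the difference was -3.57 for *Afp* (SE 0.16, adjusted p = 7.1e-18), 1.01 for *Igf2* (SE 0.11, adjusted p = 1.7e-09) and -1.42 for *Igf2bp1* (SE 0.10, adjusted p = 2.1e-13). For mouse-2 (P10) it was -1.65 for *Afp* (SE 0.16, adjusted p = 8.2e-10), -1.21 for *Igf2bp1* (SE 0.10, adjusted p = 2.6e-11) and -1.22 for *Igf2bp2* (SE 0.12, adjusted p = 1.8e-09). For clone-1 it was -1.82 for *Afp* (SE 0.16, adjusted p = 3.7e-11), -3.39 for *Igf2* (SE 0.11, adjusted p = 3.4e-21), -1.18 for *Igf2bp1* (SE 0.10, adjusted p = 1.3e-11) and -3.34 for *Igf2bp3* (SE 0.07, adjusted p = 8e-25).

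*Afp* therefore behaved differently in mouse-1 (P10) than in each of the other 3 lines, and the 3 comparisons share the samples of mouse-1 (P10). The value for *Igf2* in mouse-1 (P35) fell to 0.89 to 1.00 and was not called when 1 of 4 samples was left out, IL6-iMHs replicate 1 or IL6-iHPCs replicate 3 at P35, or IL6-iMHs replicate 3 or IL6-iHPCs replicate 3 at P10. Under median-of-ratios scaling *Igf2bp1* was -0.84 for mouse-1 (P35) and -0.85 for clone-1, and *Igf2bp2* was -0.96 in mouse-2, and these were not called. In clone-1 maturation and a difference of origin cannot be told apart, since Y-linked reads differ between its IL6-iHPC and IL6-iMH samples.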

How the results depend on the processing

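Counts of the genes called were recomputed under each alternative. At D3 against hepatocytes 3 genes were called, and 5 with a pseudocount of 0.1, with no fold threshold or with limma voom. The lowest count at D3 under such alternatives was 2. For IL6-iMHs against IL6-iHPCs the count of 2 was 1 under median-of-ratios scaling, 7 with no fold threshold, 4 with voom and 1 without clone-1. For passaged IL6-iHPCs against hepatocytes the count of 5 was 3 without clone-1, an alternative added after seeing the data. The highest count there under any alternative was 7. At day 3 after PHX the 1 call (*Afp*) was lost without a filter, with voom and with a filter at 5 FPKM, which *Afp* does not pass, each giving 0. Leaving out 1 sample at a time gave 0 to 1 there, with 0 without normal liver replicate 1, 2 or 3 or PHX-D3 replicate 2. In cells it gave 3 to 3 at D3, 6 to 7 at D14 (*Gpc3* and *Dlk1*, which passed the filter through D14 alone, included), 5 to 5 in passaged IL6-iHPCs, 3 to 3 in IL6-iMHs and 2 to 2 for IL6-iMHs against IL6-iHPCs. The cause of these changes was not tested. Of 3990 values of single genes under the alternatives, 3771 kept their direction and their side of the threshold, 63 lost the call, 156 gained it and 0 reversed.

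Same-numbered samples did not deviate together (mean r of -0.015 in cells and -0.030 in livers, with 4 of 33 and 5 of 18 samples closest to their own number), so the numbers do not pair them. With the replicate block the counts were 3 at D3, 5 for passaged IL6-iHPCs, 3 for IL6-iMHs and 2 for maturation, as without it. The count at day 3 after PHX stayed at 1. The count at D14 stayed at 7 with *Gpc3* and *Dlk1* included, whose differences there were in part fixed by the filter on low values. Depth limits *Dlk1*, *Igf2bp1* and *Lin28b* in liver, where no library held over 8 reads on any of them.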
